A study of Rattus norvegicus with 20 samples.

Results

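Primary cultures from neonatal rat hearts, exposed to celecoxib at reference concentration 1 for 6 h, were compared with untreated cultures by single-colour microarray. The comparison was chosen by the treatment labels and comprised 5 of the 20 arrays of the series, 3 with celecoxib and 2 untreated. The celecoxib cultures had grown in DMEM for 1 day before the drug was added at the highest of the concentrations used (1, 1/5 and 1/25). Only these relative figures are given, not the molar amount. The untreated cultures came from the same kind of tissue, and no vehicle or time of harvest is stated for them, so time in culture, vehicle and drug cannot be told apart. No strain, sex or genotype is given for either group. The design text states 3 replicates per group, while 2 untreated arrays were analysed. Nothing states that replicates came from different cultures or hearts. The p-values below therefore reflect variation among arrays alone, which may be technical. That spread was estimated over 14 or all 20 arrays of the series, most of them outside the 5 compared.

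Celecoxib is a selective inhibitor of cyclo-oxygenase 2, the inducible enzyme that converts arachidonic acid into the precursor of prostaglandins, prostacyclin and thromboxane. In the heart and vessels these lipids act on muscle tone, platelets and inflammation, and the sulfonamide group of celecoxib also binds carbonic anhydrases. Cultures of newborn rat heart hold beating cardiomyocytes together with fibroblasts and other non-muscle cells. All of them contribute RNA to a measurement of the whole culture, in which fewer cells of a type and less RNA per cell cannot be told apart.

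Both untreated arrays and celecoxib replicates 1 and 2 lay on the same slide and were scanned on the same day. Celecoxib replicate 3 lay on another slide with the arrays of concentration 1/5 for 6 h and was scanned on a second day. Replicates 1 and 2 against untreated are therefore given first (the slide 1 comparison), and all 3 replicates after that. Of 41012 probes, 66.1% to 82.5% read well above background on the 5 arrays and 6.3% to 7.94% were saturated, and the number of arrays limits the precision. Untreated replicate 1 stood apart. Its 75th percentile was 4.07 times its median signal, the lowest ratio of all 20 arrays, against 5.27 on untreated replicate 2. Across genes, it correlated at 0.930 with untreated replicate 2, while untreated replicate 2 correlated at 0.956 with celecoxib replicate 1 and at 0.956 with celecoxib replicate 2. Levels below are log2 signals relative to the 75th percentile of the array, so that 0 is the signal at that percentile.

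After 6 h of celecoxib a small set of genes read many times higher than in untreated cultures, and a longer list of genes read lower. Among the rises were Gldn (gliomedin, an adhesion protein), Tfpi2 (a protease inhibitor), Olr1 (a lipoprotein receptor) and Nes (nestin, an intermediate filament protein), and among the falls Hs3st1 (a heparan sulfate sulfotransferase), Agxt (an aminotransferase) and Reep4 (a protein of the endoplasmic reticulum). In limma, with a Benjamini-Hochberg adjustment over all genes, 1816 of 24646 genes (7.37%) had an adjusted p below 0.05 in the slide 1 comparison. Of these, 305 were higher with celecoxib (1.24%) and 1511 were lower (6.13%). Genes were kept if well above background in either group, and 517 of the falls and 22 of the rises were not well above background on all 5 arrays, so many falls entered through the untreated arrays where they are high. The median size of the change was 1.2 for the rises and 1.6 for the falls on the log2 scale. The genes that fell had a median level of -1.66 in untreated cultures, those that rose had -0.53, and all genes had -0.74.

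The count rests on few arrays and on the scaling. It used the other arrays of the same scan day to estimate the spread, and with the 4 arrays of slide 1 alone 0 genes passed in limma and 3945 had an unadjusted p below 0.05. Without untreated replicate 1, 200 genes passed (0.813%), 38 higher (0.154%) and 162 lower (0.659%), and without untreated replicate 2 there were 4387 (17.8%), 1414 higher (5.74%) and 2973 lower (12.1%). Without celecoxib replicate 1 there were 237, and without celecoxib replicate 2 there were 1328. Scaling each array by its median in place of its 75th percentile shifted the median difference of all genes from 0.05 to 0.42 and gave 957 genes, 49.5% of them higher, where the 75th percentile gave 16.8% and quantile normalization 28.9%. Untreated replicate 1 read above untreated replicate 2 in 73.2% of the falls, 29.0% of the rises and 47.0% of all genes. Most of the genes that passed without each of the 4 arrays in turn were falls. Some of these, such as Dkk1 and Sox10, were not well above background on celecoxib replicates 1 and 2 and entered through the untreated arrays. Celecoxib replicate 3, which had no part in this choice, read above both untreated arrays in some of these falls, such as Sox10. It read below both in others, such as Agxt.

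**Figure D1:**
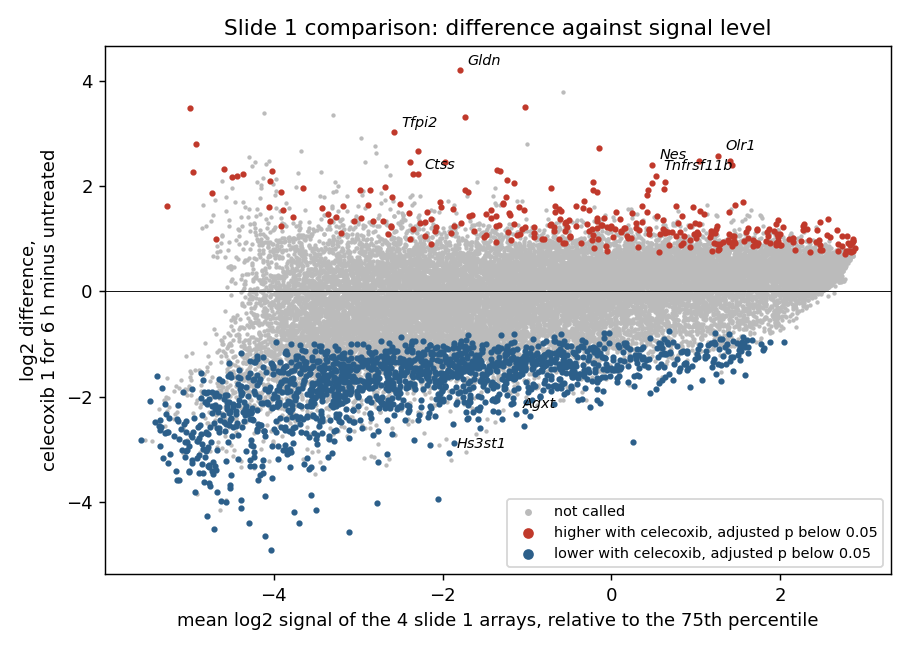
Each point is a gene, with the mean log2 signal of the 4 slide 1 arrays on the x axis and the log2 difference, celecoxib minus untreated, on the y axis. Red points are the 305 genes higher with celecoxib and blue points the 1511 lower at an adjusted p below 0.05, and the blue points spread to larger differences at low signal.

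The named rises and falls are the 12 genes in each direction with the widest gap between the groups. They passed on slide 1, read well above background throughout the 5 arrays, and had all 3 celecoxib arrays beyond both untreated arrays, a pattern that 11.2% of all genes showed upwards and 17.3% downwards. The probes of the 3 rises with the widest gap, and of the fall with the largest difference among the 12, are shown because each difference is read from a single 60-base oligonucleotide. Positions are those of the array design on the rat build rn3, in the strand given, and exon structure on that build was not used here.
Gldn, chr8:57857929-57857988, plus strand: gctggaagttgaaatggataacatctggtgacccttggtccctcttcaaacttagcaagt
Tfpi2, chr4:28825607-28825666, minus strand: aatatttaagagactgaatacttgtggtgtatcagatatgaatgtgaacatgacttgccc
Olr1, chr4:166992203-166992262, minus strand: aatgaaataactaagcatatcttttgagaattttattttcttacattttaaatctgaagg
Hs3st1, chr14:76441330-76441389, plus strand: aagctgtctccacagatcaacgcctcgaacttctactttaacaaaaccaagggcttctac

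Gldn encodes gliomedin, a collagen-like adhesion protein known from the nodes of peripheral nerve. It read 0.50, 0.13 and 0.41 on the 3 celecoxib arrays, against -4.01 and -3.78 on the untreated arrays. All celecoxib arrays lay far above both untreated arrays, with a gap of 3.91 between the groups. The slide 1 difference was 4.21 ± 0.30 on the log2 scale (SE, 2 arrays against 2), 18.5-fold, with adjusted p = 0.000261 in limma. Each SE of the slide 1 comparison uses the spread over the 14 arrays of that scan day, not the 4 compared arrays alone. Gldn passed without each of the 4 arrays in turn.

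A protease inhibitor and 2 proteases were among the named rises. Tfpi2, a Kunitz-type inhibitor of serine proteases such as plasmin, read -0.85, -1.28 and -0.94 with celecoxib, against -4.44 and -3.73 untreated. The groups did not overlap, and the difference was 3.02 ± 0.50 (SE), 8.12-fold, with adjusted p = 0.00996 in limma. Without untreated replicate 1 it was 2.66 and did not pass (adjusted p = 0.0803). Mmp12, the macrophage elastase, read 1.44, 1.24 and 1.48 with celecoxib, against -1.05 and 0.05 untreated. Its treated arrays lay close together and the untreated arrays did not, and the difference of 1.84 ± 0.30 became 1.29 without untreated replicate 1, with adjusted p = 0.0393. Ctss, the lysosomal cysteine protease cathepsin S of antigen-presenting cells, read -0.93, -1.44 and -0.45 with celecoxib, against -3.70 and -3.12 untreated. That is 2.22 ± 0.32 higher, and its second probe was 1.71 higher.

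Receptors of lipids and cytokines were also among the rises. Olr1, the receptor for oxidised low-density lipoprotein on endothelium and macrophages, read 2.30, 2.82 and 2.43 with celecoxib, against -0.30 and 0.26 untreated. The groups stood apart by 2.04, and the difference was 2.58 ± 0.34, with 2 of the 3 celecoxib arrays saturated, 1 of them on slide 1. Tnfrsf11b, the decoy receptor osteoprotegerin, read 1.54, 1.73 and 2.51 with celecoxib, against -0.74 and -0.39 untreated, and 1 celecoxib array was saturated. Every celecoxib array lay above both untreated arrays, and the slide 1 difference was 2.20 ± 0.38 (adjusted p = 0.0118 in limma), which did not pass without untreated replicate 1 (adjusted p = 0.0849). Gfra2, the neurturin receptor of the GDNF family, was 1.70 ± 0.36 higher, with adjusted p = 0.0223 in limma.

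Nes encodes nestin, an intermediate filament protein of progenitor cells and of injured muscle. It read 1.74, 1.63 and 1.05 with celecoxib, against -0.90 and -0.55 untreated. None of the celecoxib arrays came near the untreated ones, and the difference was 2.41 ± 0.36, with the second probe 1.70 higher. Without untreated replicate 1 it was 2.23 and did not pass (adjusted p = 0.0544 in limma). Akap12, a scaffold of protein kinases A and C, read -0.50, 0.26 and -0.29 with celecoxib, against -1.69 and -2.68 untreated, and the second of its probes was 1.64 higher. Fgf2, a fibroblast growth factor, read -0.67, -1.24 and -2.30 with celecoxib, against -3.42 and -3.82 untreated. Its celecoxib replicate 3 was the lowest of the treated arrays, still above both untreated arrays. The difference of 2.66 ± 0.37 holds for 1 probe, while the other probe of Fgf2 had -0.56 (adjusted p = 0.586 in limma).

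For the remaining rises, Fbrsl1 and Rhpn2, the brighter probe was 1.44 and 1.34 higher and the dimmer one was -1.74 and -1.32 on the same scale, so the probes of both genes opposed each other. With the mean of the probes Fbrsl1 had -0.15 and Rhpn2 0.01.

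**Figure D2:**
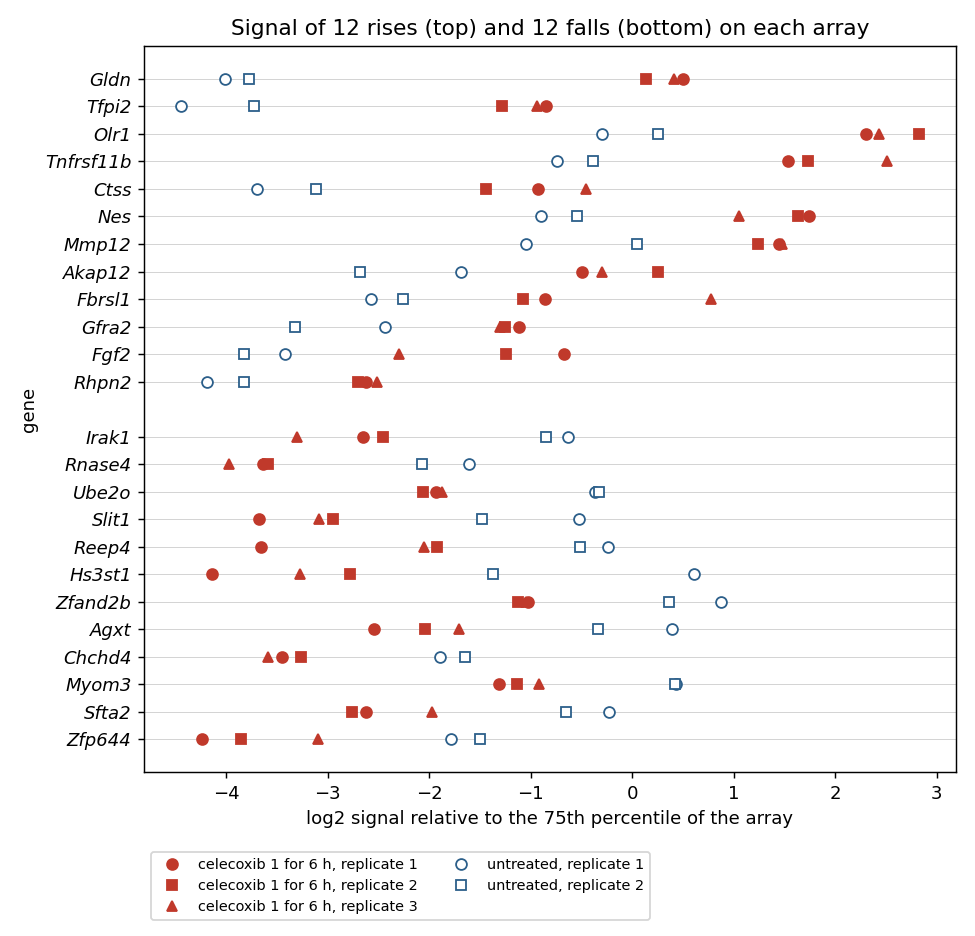
Log2 signal relative to the 75th percentile of each array (x axis) for the 12 named rises (top) and 12 named falls (bottom), with 1 symbol per array. Filled red symbols are celecoxib 1 for 6 h and open blue symbols untreated. Gldn shows the widest gap at 3.91, and no gene shown has overlapping groups, as the naming rule requires.

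The named falls had differences of -3.08 to -1.58 on the log2 scale, with adjusted p from 0.00478 to 0.0405 in limma. Hs3st1, a sulfotransferase that places the rare 3-O-sulfate on heparan sulfate, read -4.14, -2.78 and -3.27 with celecoxib, against 0.61 and -1.38 untreated. The untreated arrays were far apart, and the difference of -3.08 ± 0.57 (adjusted p = 0.0151) became -2.08 without untreated replicate 1 (adjusted p = 0.0892 in limma). Agxt, the peroxisomal aminotransferase that detoxifies glyoxylate, read -2.55, -2.04 and -1.71 with celecoxib, against 0.39 and -0.34 untreated. The 3 treated arrays lay below both untreated arrays, and the slide 1 difference was -2.32 ± 0.32. Myom3, which encodes myomesin 3 of the sarcomere's M-band, read -1.31, -1.14 and -0.91 with celecoxib, against 0.43 and 0.42 untreated.

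The untreated arrays of Myom3 were nearly equal, and its difference was -1.65 ± 0.24. Agxt, Myom3, Sfta2 (-2.25 ± 0.32), a secreted surfactant-associated protein, and Zfp644 (-2.40 ± 0.30), a zinc finger gene, passed without each of the 4 arrays in turn, as Gldn, Olr1, Ctss and Fgf2 did among the rises. The other falls, Hs3st1 among them, did not pass without untreated replicate 1. They also included Slit1, a guidance ligand of Robo receptors (-2.31), Reep4, a shaping protein of the endoplasmic reticulum (-2.41), Irak1, a kinase of interleukin 1 and Toll-like receptor signalling (-1.81), Rnase4, a secreted ribonuclease (-1.77), Zfand2b, a proteasome-associated protein (-1.69), Ube2o, a ubiquitin-conjugating enzyme (-1.65), and Chchd4, which imports proteins into the mitochondrial intermembrane space (-1.58).

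Ptgs2, the gene of the drug's target, read -1.37, -2.17 and -0.68 with celecoxib, against -3.87 and -2.40 untreated. All celecoxib arrays lay above both untreated arrays, with untreated replicate 1 far the lowest. The slide 1 difference was 1.36 ± 0.46 (adjusted p = 0.0884 in limma), and without untreated replicate 1 it was 0.63 (adjusted p = 0.542), so Ptgs2 did not pass. Ptgs1, the constitutive cyclo-oxygenase, read 1.80, 1.79 and 1.53 with celecoxib, against 1.03 and 1.72 untreated, and did not pass (0.42 ± 0.24, adjusted p = 0.272). Ptges, the inducible prostaglandin E synthase, had a difference of -0.72 ± 0.32 (adjusted p = 0.165 in limma). Ptgis, the prostacyclin synthase, had -0.16 ± 0.34 (adjusted p = 0.784).

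Of 15 tested genes of prostanoid and related lipid synthesis and their receptors, 6.67% were called, against 7.37% of all genes, and 0 rose and 1 fell. This was Alox15, a lipoxygenase of the same substrate, which read -1.13, -0.94 and -0.21 with celecoxib, against 0.29 and 0.44 untreated, a difference of -1.41 ± 0.30 (adjusted p = 0.0219 in limma). The median difference of the list was -0.16, against 0.05 for all genes, and it turned to 0.22 under median scaling and to 0.21 under quantile normalization. Median scaling raised the median of all genes to 0.42, and list medians rose with it. Of 8 tested carbonic anhydrases, 2 fell, Car7 (-1.71 ± 0.29) and Car1 (-1.28 ± 0.35). That is 25% of this short list, against 7.37% of all genes. Car1 read -2.52, -1.61 and -2.01 with celecoxib, against -0.36 and -1.20 untreated, while Car7 read -2.28 on celecoxib replicate 3, above both untreated arrays at -2.42 and -2.66. The median of the list was -0.65, and without untreated replicate 1 it was -0.18 with 0 falls. Car2, the widespread cytosolic enzyme, had -1.10 ± 0.79 and did not pass.

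The members of 33 gene lists were set beside the background of 7.37% called. Most list counts rest on untreated replicate 1. On slide 1, 26 lists held 57 called genes, and without that array 8 of these genes passed, in 7 lists. They were Akap12, Ctss, Dkk1, Fgf2, Kcnk3, Mmp12, Nppc and Olr1. On celecoxib replicate 3, 43 of the 57 lay beyond both untreated arrays in the direction of the call, 10 between them and 4 on the other side, Car7, Nr1i2 and Atg9a among these. Among 19 tested cathepsins, scavenger receptors and macrophage products, 5 rose and 1 fell (31.6% called). Beside Olr1, Ctss and Mmp12, these were Cd83, a surface protein of activated immune cells (1.34 ± 0.34), and Spp1, the matrix cytokine osteopontin (1.05 ± 0.26), and 5 also rose under median scaling and under quantile normalization. The fall was Cd163, the haemoglobin scavenger receptor of macrophages, which read -5.51, -3.75 and -3.50 with celecoxib, against -2.23 on each untreated array, and was well above background on 2 of the 3 celecoxib arrays. The median of this list was 0.21.

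Macrophage markers were read beside these products. Of 9 tested macrophage and leukocyte markers, 22.2% were called, against 7.37% of all genes. None rose and 2 fell, Cd14, a receptor for bacterial lipopolysaccharide (-1.0 ± 0.24), and Lyz2, lysozyme (-0.97 ± 0.27), with a list median of -0.44. The median was -0.0030 over all arrays and 0.19 without untreated replicate 1, with 0 falls in either. Under median scaling 0 rose and 0 fell, and under quantile normalization 1 rose and 2 fell. The second probe of Cd14 had -0.07. The summed linear signal of the 12 macrophage markers was 8.77 to 10.1 times the 75th percentile with celecoxib, against 11 to 11.7 untreated. Of these markers, 9 read well above background on each of the 5 arrays and Itgam, an integrin of myeloid cells, on none. Cd68, a lysosomal protein of macrophages, had 0.73 ± 0.44 and did not pass. The part of macrophage content in the rises of Ctss, Mmp12 and Olr1 was not tested.

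Of 22 matrix metalloproteases, their inhibitors and plasmin regulators, Tfpi2 and Mmp12 rose and Adamts5, an aggrecanase, fell (-2.08 ± 0.56, well above background on 2 of 3 celecoxib arrays). That is 13.6% of the list, against 7.37% of all genes. Plaur, the urokinase receptor, had 1.27 ± 0.37 (adjusted p = 0.0586 in limma) and did not pass. With median scaling 5 genes of this list rose and 0 fell, and with quantile normalization 3 and 0. In a list of 35 collagens and genes of the TGF-beta response, Col15a1, a basement membrane collagen, rose (1.39 ± 0.29) and 0 fell (2.86% called), with a median of 0.22.

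Heparan sulfate is the chain on which growth factors are held at the cell surface. Of 23 genes of its enzymes and core proteins, 1 rose and 3 fell (17.4% called, against 7.37% of all genes), with a median of -0.07. Beside Hs3st1, the falls were Hs3st2, another 3-O-sulfotransferase (-2.13 ± 0.56), and Hs6st2, a 6-O-sulfotransferase (-1.86 ± 0.39). Hs6st2 read -3.71, -3.17 and -2.08 with celecoxib, against -1.39 and -1.78 untreated. Hs3st2 was well above background on 2 of the 3 celecoxib arrays. It read -5.615, -3.644 and -3.017 with celecoxib, against -2.029 and -2.962 untreated, so replicate 3 was nearly level with untreated replicate 2. Over all arrays Hs3st2 did not pass (adjusted p = 0.160 in limma). Sdc2, the core protein syndecan 2, rose (0.91 ± 0.25), with 2 of 3 celecoxib arrays saturated. Under median scaling 1 rose and 2 fell, and under quantile normalization 0 rose and 2 fell.

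Of 36 growth factors, receptors and antagonists, 4 rose and 3 fell (19.4% called, against 7.37% of all genes), with a median of -0.00059. The rises included, beside Fgf2 and Tnfrsf11b, Ereg, the epidermal growth factor family ligand epiregulin (0.89 ± 0.23). The falls were Angpt1, the vessel-stabilising angiopoietin 1 (-1.80 ± 0.39), Angptl4, an inhibitor of lipoprotein lipase (-1.56 ± 0.36), and Pgf, placental growth factor (-1.50 ± 0.35). Angpt1 read -5.41, -4.28 and -5.31 with celecoxib, against -2.81 and -3.28 untreated, was well above background on 2 of 3 celecoxib arrays, and passed with all arrays as well (adjusted p = 0.0268 in limma). Of 32 genes of Wnt and Notch pathways, 0 rose and 4 fell (12.5% called), with a median of -0.28.

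The Wnt genes that fell were Sfrp2, a secreted Wnt antagonist (-1.75 ± 0.39), the ligand Wnt9a (-1.15 ± 0.28), the antagonist Dkk1 and the ligand Wnt2. The second probe of Sfrp2 had -1.11 (adjusted p = 0.465 in limma). On celecoxib replicate 3 Sfrp2 read -1.79, between the untreated arrays at -1.22 and -2.24. Dkk1 was not well above background on celecoxib replicates 1 and 2 and entered through the untreated arrays. It was at least 1.88-fold lower there than untreated, counted from the lowest signal well above background on each array. Its adjusted p of 0.0127 in limma comes from the dim values themselves, not from this bound. Wnt2 had no value on celecoxib replicate 2, and by the same bound it was at least 9.46-fold lower on celecoxib replicate 1, a single array. Without untreated replicate 1 it did not pass (adjusted p = 0.0849 in limma). Its celecoxib replicate 3 read -2.45, between the untreated arrays at -0.65 and -2.71. The list had 3 falls under median scaling and 1 under quantile normalization.

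In the heart muscle lists, the shares called were 4.17% for contractile genes, 13% for natriuretic peptides and hypertrophy and 6.06% for calcium handling and ion channels. Of all genes 7.37% were called. Of 24 contractile genes, 1 rose and 0 fell, with a median of 0.22. The rise was Xirp2, an actin-binding protein of the intercalated disc, which read -1.93, -2.28 and -1.22 with celecoxib, against -2.87 and -3.51 untreated (1.08 ± 0.27, adjusted p = 0.0367 in limma). Myh6 and Myh7, the myosin heavy chains, had 0.80 ± 0.56 and 0.57 ± 0.52 and did not pass. Of 23 genes of natriuretic peptides and hypertrophy, 0 rose and 3 fell, with a median of -0.15.

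Nppc, C-type natriuretic peptide, read -7.13, -5.87 and -7.44 with celecoxib, where no array was well above background, against -3.86 and -2.79 untreated. On slide 1 it was at least 2.54-fold lower. Nppc entered through the untreated arrays, where it is high. Its adjusted p of 0.00904 in limma comes from celecoxib values not well above background, not from this bound. The other falls of that list were Adrb1, the cardiac beta-adrenergic receptor (-1.45 ± 0.34), and Gdf15, a stress-induced cytokine (-1.02 ± 0.27). Nppa and Nppb, the atrial and B-type peptides, had 0.52 ± 0.50 and 0.60 ± 0.22 and did not pass, and Nppb was saturated on all 3 celecoxib arrays. Of 33 genes of calcium handling and ion channels, 0 rose and 2 fell, the potassium channel Kcnk3 (-2.25 ± 0.33, well above background on 2 of 3 celecoxib arrays) and the T-type calcium channel Cacna1h (-1.40 ± 0.31). On celecoxib replicate 3 these channels read -2.08 and -0.54, between the untreated arrays (-1.64 and -2.24 for Kcnk3, -0.86 and -0.41 for Cacna1h).

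Junction and filament genes differed by gene. Calls were 10% of the filament list and 10.5% of the junction list, against 7.37% of all genes. Of 20 intermediate filament and cytoskeleton genes, Nes and Akap12 rose and 0 fell, with a median of 0.31. Of 19 genes of desmosomes, adherens junctions and connexins, 0 rose and 2 fell, Pkp1, a desmosomal plakophilin (-2.14 ± 0.46), and Ctnnb1, beta-catenin (-1.17 ± 0.32). Pkp1 read -3.00, -3.22 and -3.50 with celecoxib, against -0.13 and -1.81 untreated, and without untreated replicate 1 its difference was -1.30 (adjusted p = 0.134 in limma). Gja1, the main connexin of ventricular muscle, had 0.41 ± 0.23 and did not pass.

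Among stress pathways, calls were 13% of the endoplasmic reticulum list and 7.14% of the ATF4 and NRF2 lists each, against 7.37% of all genes. Of 23 chaperones and unfolded protein response genes of the endoplasmic reticulum, 2 rose and 1 fell, with a median of 0.23. Ern1, the sensor kinase IRE1, read -0.07, -0.55 and -0.05 with celecoxib, against -1.36 and -1.70 untreated (1.22 ± 0.33, adjusted p = 0.0457 in limma). Dnajb9, a chaperone induced through that sensor, was at least 1.85-fold higher, as it was saturated on all 3 celecoxib arrays. Eif2ak3, the sensor kinase PERK, read -5.51, -4.08 and -1.97 with celecoxib, against -0.57 and -0.97 untreated, and was well above background on 2 of the 3 celecoxib arrays. Its difference was -4.02 ± 0.94 on slide 1, and replicate 3 lay far nearer to the untreated arrays.

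Of 28 genes of ATF4 and the integrated stress response, 0 rose and 2 fell, Gdf15 and Gpt2, an alanine transaminase (-1.37 ± 0.33, second probe -1.32). Atf3, an early stress factor, had 0.76 ± 0.26 (adjusted p = 0.0935 in limma), Trib3 0.58 ± 0.21 and Ddit3, the factor CHOP, -0.14 ± 0.33. Among 18 cytosolic heat shock genes, 20 tRNA synthetases, 22 genes of cholesterol synthesis, 37 of the respiratory chain, 33 of glycolysis and hypoxia, 45 ribosomal proteins and 30 proteasome subunits, 0 passed. With median scaling 1 heat shock gene and 1 proteasome gene rose. Of 28 targets of NRF2, the factor of the oxidative stress response, 0 rose and 2 fell, Osgin1 (-1.87 ± 0.42) and the exporter Abcc2 (-1.36 ± 0.23). On celecoxib replicate 3 both lay between the untreated arrays. Osgin1 read -2.69 there (untreated -1.94 and -2.83) and Abcc2 0.24 (untreated 0.298 and 0.095). Hmox1, haem oxygenase 1, had -0.44 ± 0.22 and did not pass.

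In the early signalling and inflammatory lists, calls were 3.7% of immediate early, 4.17% of inflammatory and 5.26% of interferon response genes. Of all genes 7.37% were called, so most genes of any list lay below the threshold. Of 27 immediate early genes, 1 rose and 0 fell, with a median of 0.33 and 20 members above 0. This was Dusp6, a phosphatase of ERK induced by growth factors, which read 2.95, 2.89 and 2.61 with celecoxib, against 1.21 and 2.07 untreated (1.28 ± 0.27, 1 celecoxib array saturated). Fos and Egr1 had -0.60 ± 0.42 and 0.13 ± 0.28. Of 24 inflammatory cytokines, chemokines and NF-kappa-B genes, 1 rose, Ccl2, a monocyte chemokine (1.28 ± 0.33), which read 0.03, -0.17 and -0.45 with celecoxib, against -1.69 and -1.01 untreated. Of 19 interferon response genes, 1 fell, the GTPase Gbp2 (-1.20 ± 0.32), and 0 rose.

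Of the lipid, clock and turnover lists, some lay above the 7.37% called of all genes and some below. The shares were 15.4% (aryl hydrocarbon receptor and xenobiotic metabolism), 12.5% (fatty acid oxidation and PPAR targets), 9.52% (clock and KLF) and 7.69% (lysosome and autophagy). They were 5% for the BCL2 family, 4.35% for p53 targets and 2.7% for the cell cycle. Of 24 genes of fatty acid oxidation and PPAR targets, 1 rose and 2 fell. The rise was Acot2, a mitochondrial thioesterase (1.02 ± 0.25, 2 of 3 celecoxib arrays saturated), and the falls included Angptl4. On celecoxib replicate 3 Angptl4 read -3.13, between the untreated arrays at -2.45 and -3.38. Of 13 genes of the aryl hydrocarbon receptor and xenobiotic metabolism, 2 fell, Nr1i2, the pregnane X receptor (-1.23 ± 0.29), and Cyp4b1 (-1.18 ± 0.27), with a median of -0.50. On celecoxib replicate 3 Nr1i2 read 2.18, above both untreated arrays at 1.89 and 1.62. Cyp4b1 read -1.496 there, between the untreated arrays at -1.145 and -1.791. Of 21 circadian clock and KLF genes, the repressor Cry1 rose and the clock output factor Tef fell. Cry1 read 0.49, 0.38 and 0.56 with celecoxib, against -1.06 and -0.48 untreated, and passed with all arrays too (adjusted p = 0.0271 in limma).

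Of 26 lysosome and autophagy genes, 2 fell, Atg7 (-1.41 ± 0.33) and Atg9a (-1.27 ± 0.32), both of autophagosome formation. On celecoxib replicate 3 Atg9a read -1.12, above both untreated arrays at -1.39 and -1.95, and over all arrays it had -0.66 (adjusted p = 0.479 in limma). Of 20 BCL2 family and apoptosis genes, 1 rose, the caspase inhibitor Xiap (1.49 ± 0.41). Of 23 p53 targets, 1 fell, Tp53inp1 (-1.24 ± 0.34, well above background on 2 of 3 celecoxib arrays). On celecoxib replicate 3 it read -3.252, between the untreated arrays at -3.247 and -3.777. Of 37 cell cycle genes 1 fell, the ribonucleotide reductase subunit Rrm1, whose probes had -1.18 and -0.31. Over the 33 lists, the shares called lay from 0% to 31.6%, against 7.37% of all genes. With all 3 celecoxib arrays against untreated, the cathepsin and scavenger list had 3 rises, the intermediate filament list 2 and the protease list 2, and no other list had more than 1 call in a direction.

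**Figure D3:**
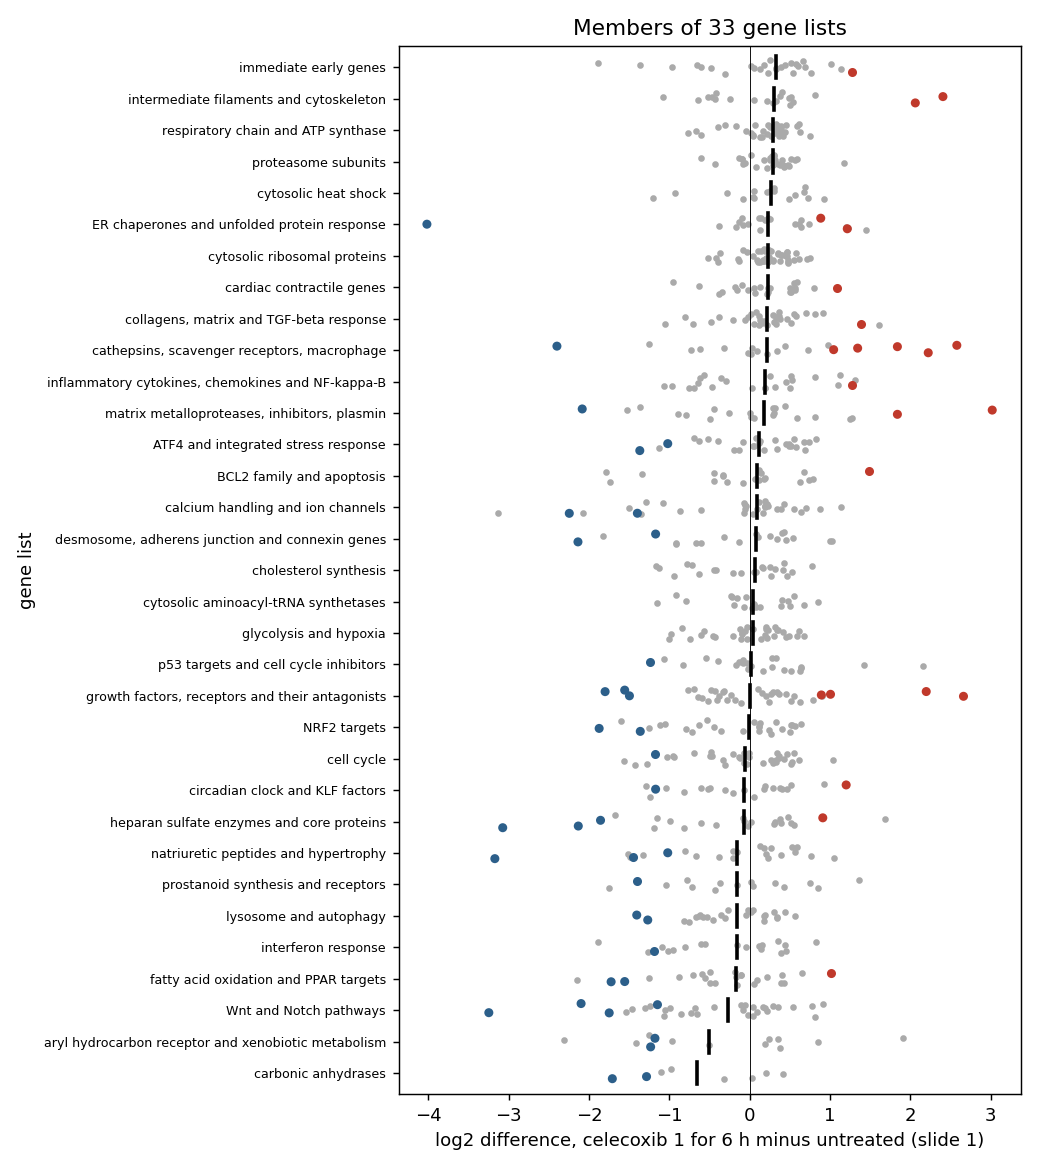
Log2 difference, celecoxib 1 for 6 h minus untreated on slide 1 (x axis), of each tested member of 33 gene lists (y axis). Red and blue points passed an adjusted p of 0.05 as higher and lower with celecoxib, grey points did not pass, and black bars are list medians. The cathepsin, scavenger receptor and macrophage list has 5 red points, and most lists have 0 or 1 red point.

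Markers of the cell types of the culture were read beside these changes. Of 12 cardiomyocyte markers on the array, 11 read well above background on each of the 5 arrays, and their summed signal was 27 to 48.5 times the 75th percentile with celecoxib, against 30 to 33.2 untreated. Fibroblast markers summed to 16.9 to 25.8 with celecoxib, against 20.5 to 20.6 untreated. Of the tested markers of fibroblasts (10), endothelium (5), epicardium (5) and cardiomyocytes (11), 0 passed. Endothelial markers summed to 7.35 to 10.6 with celecoxib, against 8.11 to 8.4 untreated, and Tek, Vwf, Tie1 and Emcn were well above background on no array. In cultures labelled as cardiomyocytes, 8 of 11 fibroblast markers thus also read well above background on all 5 arrays.

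Other markers that passed were 1 of smooth muscle and pericytes, 1 of Schwann and neural crest cells and 1 of erythroid cells. Cspg4, the pericyte proteoglycan NG2, read 1.41, 1.70 and 0.19 with celecoxib, against 0.62 and -0.39 untreated, with a slide 1 difference of 1.44 ± 0.35. Sox10, a neural crest factor, was not well above background on celecoxib replicates 1 and 2 and at least 2.29-fold lower there, while replicate 3 read -3.31, above both untreated arrays at -3.58 and -3.36. Slc4a1, the anion exchanger of red cells, was at least 3.04-fold lower on celecoxib replicates 1 and 2, with Hbb not well above background on any array. On celecoxib replicate 3 Slc4a1 read -2.98, between the untreated arrays at -2.40 and -3.73. Schwann and neural crest markers summed to 1.51 to 2.04 with celecoxib, against 1.79 to 1.8 untreated, and 3 of 8 read well above background on all 5 arrays. Of the 6 tested, 5 had differences below 0, with a median of -1.08 that was -0.45 without untreated replicate 1. On celecoxib replicate 3 the median was -0.38. Gldn is known from Schwann cells, and the part of these cells in its signal was not tested.

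Replicate 3 was measured on another slide and day, so it shares with the slide 1 comparison only the untreated arrays. Of 304 rises with a value on all 5 arrays, 237 (78.0%) also had replicate 3 above both untreated arrays, and of 1495 falls 1075 (71.9%) had it below both. Among all genes, replicate 3 lay above both in 27.5% and below both in 46.8%. The calls were made against the same 2 untreated arrays, so these shares are no independent support. With all 3 replicates against untreated, no term for day and all 20 arrays in the fit, 210 of 24658 genes (0.852%) passed in limma, 56 higher (0.227%) and 154 lower (0.625%). They included 53 of the 305 slide 1 rises and 151 of the 1511 falls. The naming rule already required replicate 3 to lie beyond both untreated arrays, so the count of named genes that passed is a description. Of these, 9 of 12 rises and 8 of 12 falls passed, with Gldn at 4.24 ± 0.30, adjusted p = 1.09e-06. The others had adjusted p of 0.0764 for Fgf2, 0.0733 for Gfra2 and 0.0931 for Fbrsl1 among the rises, and from 0.0621 to 0.144 for Ube2o, Reep4, Zfand2b and Zfp644.

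With the scan day as a block, 2494 genes passed in limma (10.1%), 658 higher (2.67%) and 1836 lower (7.45%). Among them were all 24 named genes and 265 rises and 1229 falls of slide 1. Both untreated arrays are of the first scan day, so this fit leans on the slide 1 arrays that chose these genes. The overlap is therefore no independent support and does not show that replicate 3 gave the same result. Slide as a random block gave 654 genes (correlation within slides 0.37) and as a fixed block 1104. The 5 arrays alone gave 0 genes at an adjusted p of 0.05 in limma and 2769 at an unadjusted p below 0.05. Without untreated replicate 1 the count over all arrays was 9, and Gldn alone of the 24 named genes passed. It was 918 without untreated replicate 2, and 38, 81 and 505 without celecoxib replicates 1, 2 and 3. With untreated replicate 1 left out and scan day as a block it was 206, 43 higher and 163 lower. The permutation of group labels cannot reach a p below 0.05 here, since the smallest two-sided exact p is 0.333 for 2 arrays against 2 and 0.1 for 3 against 2.

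**Figure D4:**
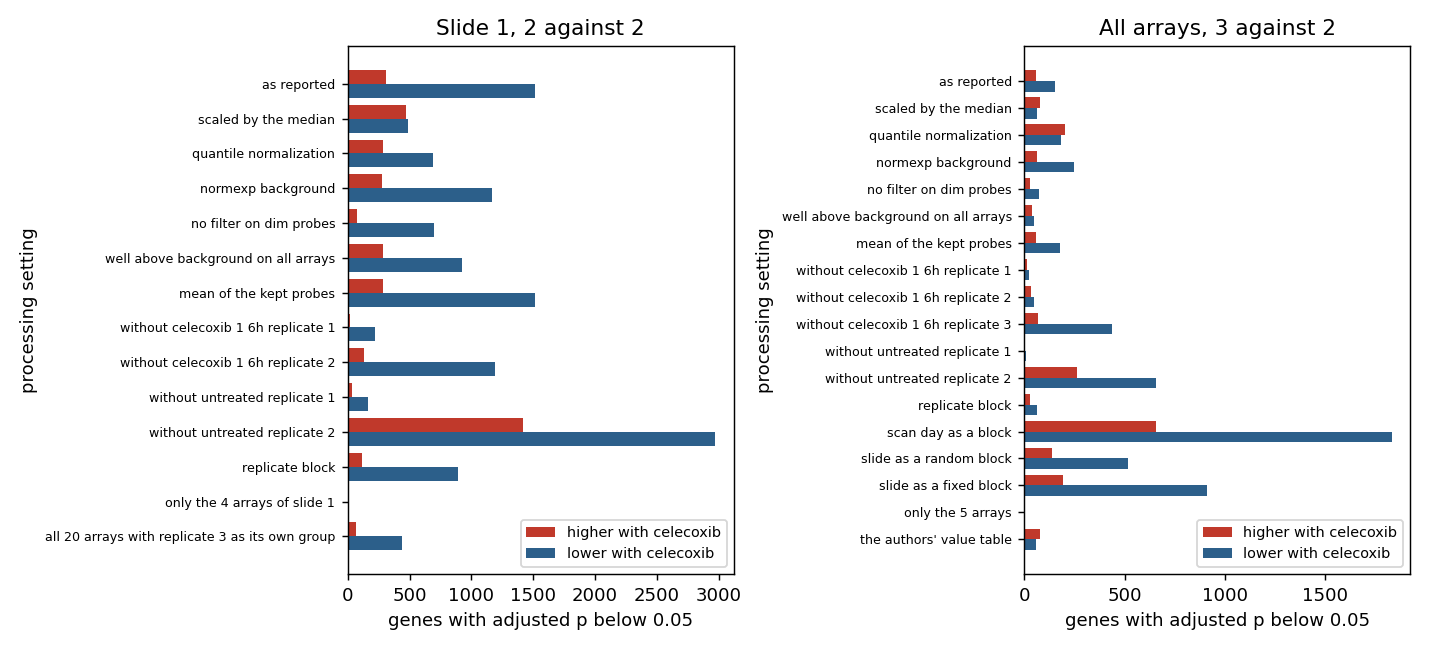
Number of genes with an adjusted p below 0.05 in limma (x axis, bars from 0) under each processing setting (y axis), for replicates 1 and 2 on slide 1 (left) and for all 3 replicates (right). Red bars are genes higher and blue bars genes lower with celecoxib. The counts run from 0 with only the compared arrays in the fit to 4387 on slide 1 without untreated replicate 2.

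Levels at the other concentrations were read beside those at concentration 1. Between concentration 1 and 1/25 at 6 h, with scan day as a block, 0 of 24660 genes passed in limma, 1405 had an unadjusted p below 0.05 (5.7%), and the lowest adjusted p was 0.201. Between concentration 1 and 1/5 there were 0 and 481 (1.95%). Gldn averaged 0.35, -0.22 and 0.35 at 1/25, 1/5 and 1, with untreated cultures at -3.89. Nes averaged 1.96, 1.04 and 1.47 in the same order, with untreated at -0.72. The difference between 1 and 1/25 was -0.05 ± 0.27 for Gldn and -0.60 ± 0.31 for Nes (SE), which does not show that the concentrations act alike. All these groups share the same 2 untreated arrays.

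The 24 h arrays gave different levels for some of the rises. Against 24 h of the same concentration, replicates 1 and 2 at 6 h differed in 220 of 24647 genes (0.893%), 67 higher (0.272%) and 153 lower (0.621%) at 6 h, but the 24 h arrays lay on other slides, so time and slide cannot be told apart. Among the 12 named rises 5 were higher at 6 h than at 24 h, and the 12 falls had 0 in either direction. The rises were chosen for high values on these same 6 h arrays, which favours lower values at 24 h. These counts are therefore a description and cannot be set against the share of all genes. Tfpi2 averaged -1.02 at 6 h over 3 arrays and -3.88 at 24 h, with a difference of 2.82 ± 0.46 between the times (adjusted p = 0.0214 in limma). Olr1 (2.34 ± 0.31, 1 of its 2 arrays at 6 h saturated), Nes (2.54 ± 0.33), Fgf2 (2.29 ± 0.34) and Gfra2 (1.93 ± 0.33) were likewise higher at 6 h. At 24 h Nes read -1.33 to -0.45, a range that overlaps the untreated arrays at -0.90 and -0.55.

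Gldn, Ctss and Mmp12 did not pass between the times, with differences of 0.95 ± 0.28 (adjusted p = 0.129 in limma), 0.42 ± 0.29 and 0.02 ± 0.27. At 24 h of concentration 1 Gldn averaged -0.63 and Mmp12 1.32, above both untreated arrays of each gene. Hs3st1 averaged -3.72 at 24 h, with a difference of 0.26 ± 0.52 between the times. Ptgs2 averaged -0.30, -1.18 and -1.41 at 1/25, 1/5 and 1 for 6 h and -4.13, -4.04 and -3.71 in the same order for 24 h, and its difference between the times at concentration 1 was 1.94 ± 0.42 (adjusted p = 0.0560 in limma).

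**Figure D5:**
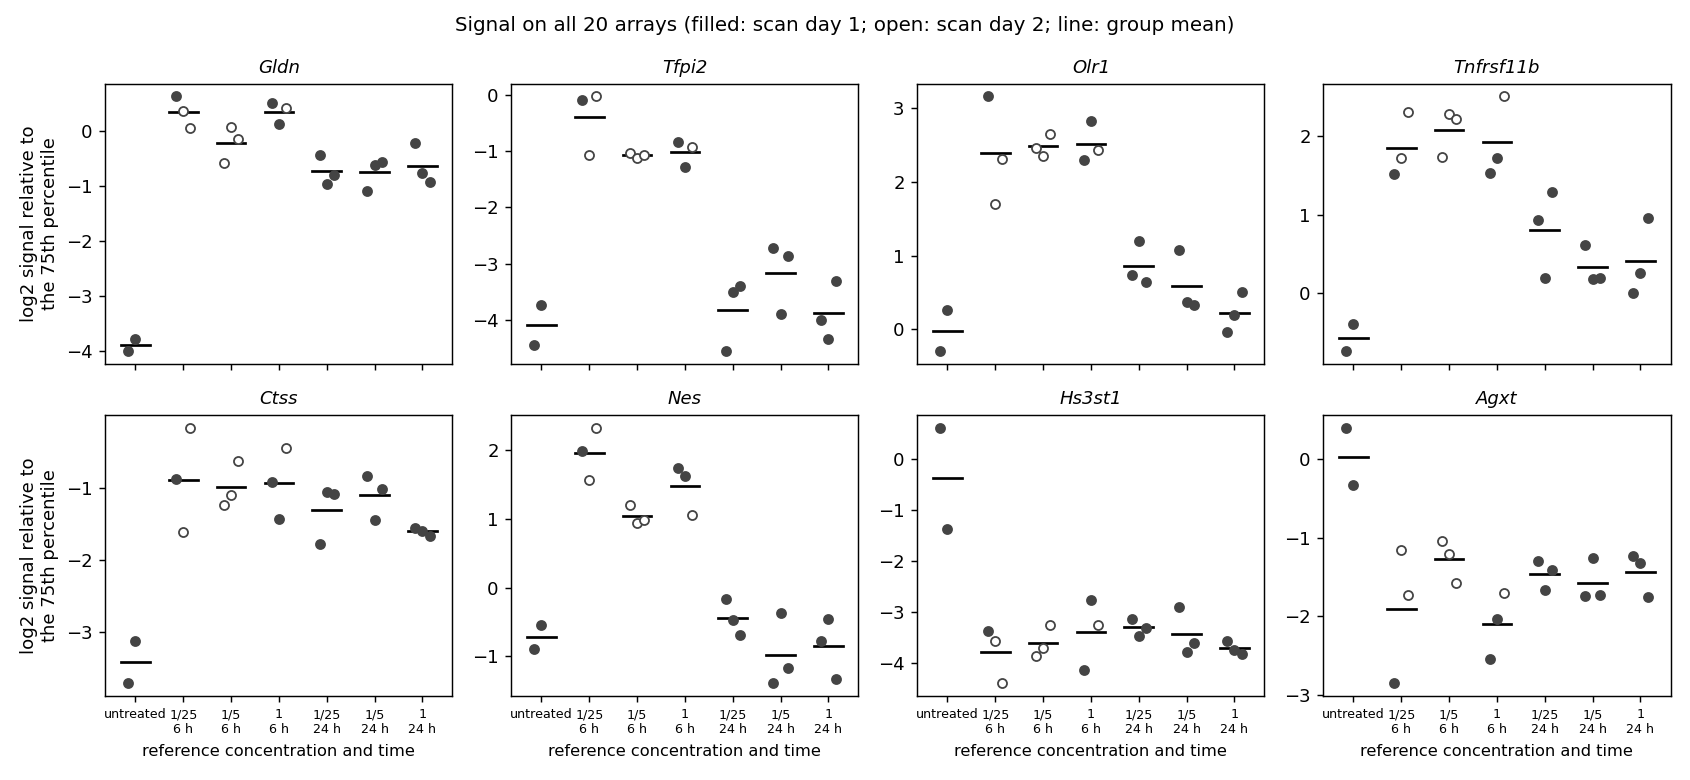
Log2 signal relative to the 75th percentile (y axis) of 8 named genes on all 20 arrays, by group from untreated through the concentrations at 6 h to those at 24 h (x axis). Points are arrays, filled for the first scan day and open for the second, and lines are group means. Tfpi2, Olr1 and Nes are high in all 6 h groups and lower at 24 h, while Gldn and Ctss stay above and Hs3st1 below the untreated arrays in every celecoxib group.

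The promoters of the named genes around their starts in the RefSeq annotation of GRCr8 were searched on both strands for 6 motifs. Sequences matched 10 of the 12 rises and 9 of the 12 falls. The AP-1 motif TGANTCA was in 3 of the 10 rises (Tfpi2, Olr1 and Mmp12) and 0 of the 9 falls, against 7.33% of 27457 promoters. The antioxidant response motif TGACNNNGC was in 3 rises (Gldn, Nes and Fbrsl1) and 0 falls, against 12.2%. The CRE motif TGACGTCA was in 0 rises and in 1 fall, Zfand2b (1.91% of all), the E-box CACGTG in Mmp12 alone (6.65%), and the canonical NF-kappa-B motif (0.0947%) and the ATF4 motif TGATGNAA (3.82%) in none. The promoters of the rises with the widest gap are shown, with the motif match in capitals. A match describes these letters and shows no binding.
Gldn promoter, GRCr8 chr8:63575020-63575319, plus strand: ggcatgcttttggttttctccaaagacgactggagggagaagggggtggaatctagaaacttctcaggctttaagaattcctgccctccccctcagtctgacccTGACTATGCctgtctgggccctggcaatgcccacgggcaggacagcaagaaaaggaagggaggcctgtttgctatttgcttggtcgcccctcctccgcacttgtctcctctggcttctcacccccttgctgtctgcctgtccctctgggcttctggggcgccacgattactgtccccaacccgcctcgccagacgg
Tfpi2 promoter, GRCr8 chr4:32941227-32941526, minus strand: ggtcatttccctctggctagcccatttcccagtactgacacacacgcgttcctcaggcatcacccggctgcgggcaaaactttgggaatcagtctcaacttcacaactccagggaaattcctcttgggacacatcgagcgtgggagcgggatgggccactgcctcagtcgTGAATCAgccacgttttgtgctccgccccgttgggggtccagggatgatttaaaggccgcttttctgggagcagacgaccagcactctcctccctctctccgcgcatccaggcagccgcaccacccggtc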

How the data were processed

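RNA of neonatal rat heart cultures was hybridised in Cy3 to single-colour Agilent arrays, per the labels. The deposited scanner files hold spot intensity in linear units with flags for background, saturation and outliers, which per the file headers came from Agilent Feature Extraction 9.5.3.1 with probe positions on rn3. The authors also deposited processed values as a linear ratio. Set against the scanner signals, these equal each signal divided by the array median and by the untreated mean (median absolute log2 gap 0.00188, column medians 0.826 to 1.27). They served as an alternative.

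Processed signals were taken to log2 and the array's 75th percentile was subtracted. A probe was kept if well above background on every array of celecoxib 1 for 6 h or of untreated, and the brightest kept probe stood for a gene, which gave 27930 probes and 24661 genes, 10409 with a symbol and 2712 with several probes. Of 41012 probes, 10735 were named by accession, 9300 by symbol or synonym and 65 by another accession through RefSeq tables, and 20912 kept the name in the file. The slide 1 comparison was fitted in limma 3.58.1 (R 4.3.3) on the 14 arrays of the first scan day with a mean for each group (8 residual degrees of freedom, 11.5 after moderation), and the other on all 20 arrays (13 and 17.7). Tests were moderated and two-sided, with Benjamini-Hochberg adjustment over all genes. Where a gene had no value on an array, the fit dropped that array for that gene. Bounds for dim genes use the lowest signal well above background on each array. The fits were also run on simulated data with independent noise, which does not cover effects of slide, scan day or a deviating array. Packages jsonlite 2.0.0, statmod 1.5.0 and, for tabular input, data.table in version 1.17.8 were used.

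Genes were named as the 12 rises and 12 falls with the widest gap under the conditions given in the text, up to 4 called members of each of 41 lists (33 pathway and 8 marker lists), and Ptgs1, Ptgs2, Ptges and Ptgis. Genes named beyond these (Ereg, Pgf, Cd163, Cd83 and those that did not pass) were chosen after their values were seen. Some items are not reported here. The comparison, lists, tests and alternatives were chosen with earlier results of these data known. Alternatives changed the scaling, background correction (normexp, offset 50), dim-probe filter, probe summary, blocks and arrays left out.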

Additional observations from a re-analysis of the deposited data

How the results depend on the processing

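The count of genes on slide 1 was 957 scaled by the median, 972 with quantile normalization, 772 with no filter on dim probes, 1210 with genes well above background on all arrays, 0 with only the 4 arrays of slide 1, and 505 with all 20 arrays and replicate 3 as its own group. Leaving out single arrays gave 200 to 4387. Alternatives chosen after seeing the data left out untreated replicate 1 with median scaling (113) or quantile normalization (173). The count over all arrays was 138 scaled by the median, 384 with quantile normalization, 99 with no filter, 83 well above background on all arrays, 2494, 654 and 1104 with scan day, slide as a random block or slide as a fixed block, 0 with only the 5 arrays and 136 from the authors' value table, and 9 to 918 without single arrays. Of the calls over all arrays 26.7% were higher, against 55.1% scaled by the median, 52.9% with quantile normalization and 55.9% in the value table. The replicate block gave 1007 genes on slide 1, with 21 of the 24 named genes past (Irak1, Reep4 and Zfand2b did not pass), and 87 over all arrays. Same-numbered arrays on slide 1 deviated with a correlation of -0.3 across genes, so the numbers were not shown to pair the samples. The crossed replicate block, chosen after seeing the data, was fitted on the 4 arrays of slide 1 only. It gave 0 genes in limma (5389 at an unadjusted p below 0.05). The same 4 arrays also gave 0 genes with no block. The 0 of the crossed block therefore cannot show an effect of crossing and cannot be set against the 1007 genes.

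Of the values of the named genes under the slide 1 alternatives, 568 kept direction and side of the threshold, 621 kept direction and no longer passed, 2 newly passed and 5 reversed. Over all arrays these numbers were 1119, 107, 119 and 4. The reversals were of genes that did not pass, apart from Fbrsl1. Ptgis turned to 0.22 (slide 1) and 0.22 (all arrays) scaled by the median, to 0.20 and 0.12 without celecoxib replicate 2 (from -0.51 to 0.20 on slide 1 and from -0.24 to 0.12 over all arrays when single arrays were left out), to 0.23 in the value table, and to 0.0039 with untreated replicate 1 left out and median scaling. Ptgs1 turned to -0.067 on slide 1 with untreated replicate 1 left out and quantile normalization, and to -0.015 over all arrays without untreated replicate 1 (up to 0.68 without the other single arrays). Fbrsl1 turned to -0.15 with the mean of the kept probes. The causes were not tested. Where 1 celecoxib or untreated array was left out, the lone array was assumed to vary like the other groups. Saturated arrays and arrays not well above background limit the precision of the genes where they are named.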

Other observations

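Of the 10 genes that rose on slide 1 without each array in turn, Gldn, Olr1, Ctss and Fgf2 had a gene symbol and the others had none here. Among these, TC527072 read 0.65, 0.81 and -0.33 with celecoxib, against -3.20 and -2.35 untreated, a difference of 3.51 ± 0.33 (adjusted p = 0.00151 in limma). AI058357 read -0.29, 0.14 and -1.04 with celecoxib, against -3.78 and -2.99 untreated, a difference of 3.31 ± 0.40 (adjusted p = 0.00435). BF553172 read 2.71, 2.58 and 1.96 with celecoxib, against 0.14 and 0.20 untreated. In these 3 every celecoxib array lay above both untreated arrays. These genes were chosen after their values were seen. TC527072 (3.1 ± 0.31) and AI058357 (3.41 ± 0.36) were also higher at 6 h than at 24 h of concentration 1 in limma, with adjusted p of 0.00542 and 0.00684.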
